A study of Mus musculus with 60 samples.

Results

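Lymph node from mice that carry a knockout of St6galnac2 was set against lymph node from wild-type mice of the same line on an Affymetrix array designed around genes of glycan biology. Arrays were taken by their labels alone, and 6 of the 60 arrays of the series belong to the comparison, 3 per genotype and 1 per animal. The knockout animals (KO, -/-) were the males 9100 and 9361 and the female 9093. The wild-type animals (WT, +/+) were the males 9099 and 9362 and the female 9094. All 6 were labelled healthy, and no treatment was given in the labels. Strain, age, the node that was sampled and the deleted part of the gene were not given in the sources used here. In the study, array results guided which tissues of each knockout went on to glycan profiling, and the comparison asks which transcripts on the array differ in lymph node of the knockout. Thyroid came from the same 6 animals and served as the second tissue.

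St6galnac2 encodes a Golgi enzyme that attaches sialic acid to the N-acetylgalactosamine at the base of mucin-type O-glycans, the sugar chains on serine and threonine of membrane and secreted proteins. In lymph node such chains are known as carriers of selectin ligands on high endothelial venules, the vessels through which B and T cells enter the node. Sialylated glycans are also read by Siglecs, and galactose, mannose or N-acetylgalactosamine by C-type lectins of macrophages and dendritic cells.

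Values are log2 expression values from robust multi-array averaging, so a difference of 1 is a 2-fold difference, and all differences are KO minus WT. Of 1246 probe sets, 963 could be named and were tested, and they represent 909 genes. The lymph node identity of each array was checked first, because 2 of the 3 WT arrays stood apart. With each gene's average over tissues subtracted, the 3 KO arrays correlated with the other lymph node arrays at 0.954 to 0.962 and WT 9099 at 0.952, across 909 genes. WT 9362 correlated at 0.863, and WT 9094 at 0.513. For WT 9094 the correlation with mammary gland was 0.493, while that of the other 5 arrays with mammary gland lay between -0.053 and 0.062. These are correlations across genes, which are not independent replicates. The 7 mammary gland arrays came from another line, and 5 of them were double knockouts of B4galnt1 and B4galnt2.

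On WT 9094 many genes of mammary gland were high and the measured markers of B and T cells low. Natural killer cell markers were not low throughout: of 9 measured, 2 were lowest and 2 highest on it. Of 43 genes whose mammary gland mean lay at least 2 above the other 5 lymph node arrays, 40 read higher on 9094 than on all 5. Of 54 genes at least 2 below, 53 read lower on 9094 than on all 5. Over all 909 genes 313 read higher and 257 lower on 9094 than on all 5. Lum, which encodes the matrix proteoglycan lumican, read 9.32 on 9094 and 4.89 to 6.42 on the other 5 arrays, against a mammary gland mean of 10.19. Ccr7, the receptor that guides T cells and dendritic cells into the node, read 6.24 on 9094 and 9.28 to 10.01 elsewhere. Glycam1, a mucin-like selectin ligand of high endothelial venules, read 11.18 on 9094, within the 10.85 to 12.83 of the other 5 arrays, against 3.32 in mammary gland. Other venule markers differed: of 8 measured, 3 (Chst2, Chst4 and Fut7, enzymes that make selectin ligands) were lowest and 2 highest on 9094.

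WT 9362 differed in another set of genes. On it 23 genes lay over 1 above all 5 other lymph node arrays and 1, Rab7, which encodes a GTPase of late endosomes, lay over 1 below them. Prol1, which encodes a proline-rich secreted protein, read 11.08 on 9362 and 2.41 to 5.12 elsewhere. B3gnt6, the core 3 enzyme of O-glycan synthesis, read 9.43 against 3.92 to 4.49, and Gne, the enzyme that starts sialic acid synthesis, read 9.69 against 6.64 to 7.06. Others of the 23 were St3gal4, St3gal1, Cmas, Nans, Slc35a1, Galnt4, Galnt7, Galnt12 and B3galt5, which make, carry or use sialic acid or build O-glycans. The array was designed around genes of glycan biology, and the share of such genes was not compared with that over all genes. Genes outside this group, such as Sftpd, Ppbp, Cxcl9 and Ccl17, were also among the 23. In 17 of the 23 genes both WT thymus arrays of animals N3740 and N3738 also lay above the other 6 thymus arrays. Over all 909 genes this held for 294. Prol1 read 13.41 and 13.51 on these 2 arrays against a mean of 2.55 on the other 6. Ppbp went the other way, at 4.15 and 4.41 against 9.44. All thymus arrays came from another line, and 5 of the other 6 were B4galnt1 and B4galnt2 double knockouts. Genotype thus differed in this contrast, and its part was not tested. Arrays N3740 and N3738 were set beside 9362 after the values had been seen. No other lymph node array had more than 1 gene over 1 beyond all others, whereas 9094 had 118.

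**Figure D1:**
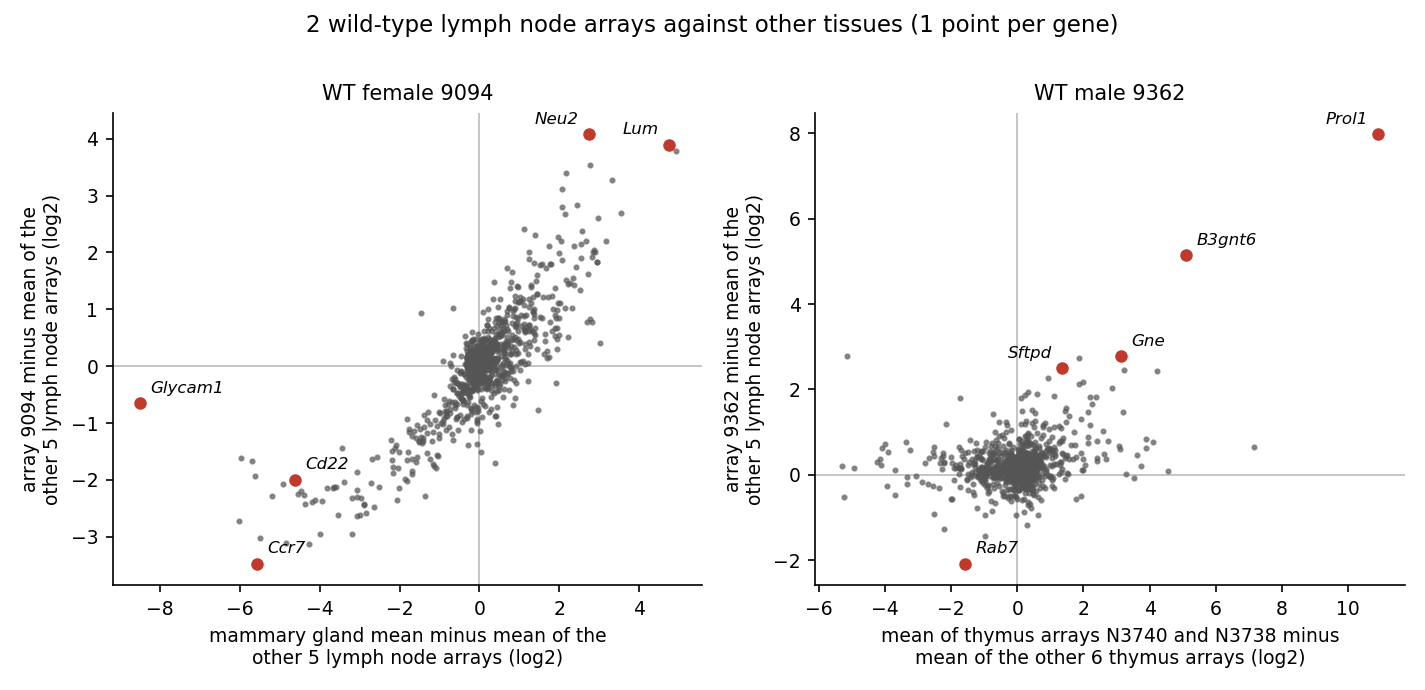
Each point is 1 of 909 genes: the left panel plots WT 9094 minus the mean of the other 5 lymph node arrays against mammary gland minus those 5 arrays, and the right panel plots WT 9362 minus its other 5 arrays against thymus arrays N3740 and N3738 minus the other 6 thymus arrays (log2 differences). Genes high in mammary gland (Lum) lie high and lymphocyte genes (Ccr7, Cd22) lie low on 9094, with Glycam1 as an exception, and Prol1 and B3gnt6 lie far above the rest on 9362.

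With these arrays in the WT group, the spread was larger there: the median standard deviation over genes was 0.326 in WT and 0.162 in KO, and WT had the larger one in 737 of 909 genes. WT 9099 was the array that most resembled the KO arrays, at correlations of 0.982 to 0.99 with them over all named probe sets, against 0.957 to 0.963 for 9362 and 0.885 to 0.92 for 9094. Because 9094 and 9362 stood apart, results below are given for all 6 animals and beside them in 2 other ways. These are the males (2 against 2, which leaves out 9094 and the KO female 9093) and the KO mean minus WT 9099, which leaves out both 9094 and 9362. The last value rests on 1 WT animal. That animal was also the WT animal most like the KO arrays, so values to WT 9099 tend to be small by construction. In bulk tissue, fewer cells of a type and less RNA per cell cannot be told apart. These values show how a difference changed with the animals left out. They do not isolate the part of 9094 or 9362, because the males also leave out KO 9093. The source of the signal of 9094 and 9362 was not tested.

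Markers of the cell types a node can hold show where the arrays differed. The 6 measured B cell markers averaged 9.51 on WT 9099, 9.23 on 9362 and 7.06 on 9094, and 9.23, 9.60 and 9.64 on KO 9100, 9361 and 9093. The 4 T cell markers averaged 7.73, 7.83 and 5.52 in WT and 7.37, 7.88 and 7.79 in KO. All 6 and all 4 read lower on 9094 than on every other array, as did 257 of all 909 genes. Among them Fcer2a, the low-affinity IgE receptor of B cells, read 6.45 on 9094 and 8.98 to 10.13 elsewhere, and Il7r, a receptor chain for T cell survival signals, read 5.20 on 9094 and 8.04 to 8.81 elsewhere. The 8 markers of reticular and other connective tissue averaged 7.74, 7.92 and 8.12 in WT and 7.48, 7.57 and 7.46 in KO, so that every KO array lay below every WT array. Markers of high endothelial venules (8), macrophages (7), natural killer cells (9) and nerve and neuroendocrine cells (5) averaged within overlapping ranges in both genotypes, and 9 of the 10 dendritic cell markers were lowest on 9094. Of epithelial markers 3 were measured, and 1 of them was highest on 9094. Against the mean of the other 5 arrays, 9094 lay 0.01 higher for Muc1, 0.13 for Erbb3 and 0.42 for Fgfr2. For Fgfr2 the mammary gland mean lay 3.02 above those 5 arrays. Of adipocyte markers 1 was measured (Angptl4, at 11.31 on 9094 and 8.86 to 10.45 elsewhere), and of skeletal muscle markers 0.

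**Figure D2:**
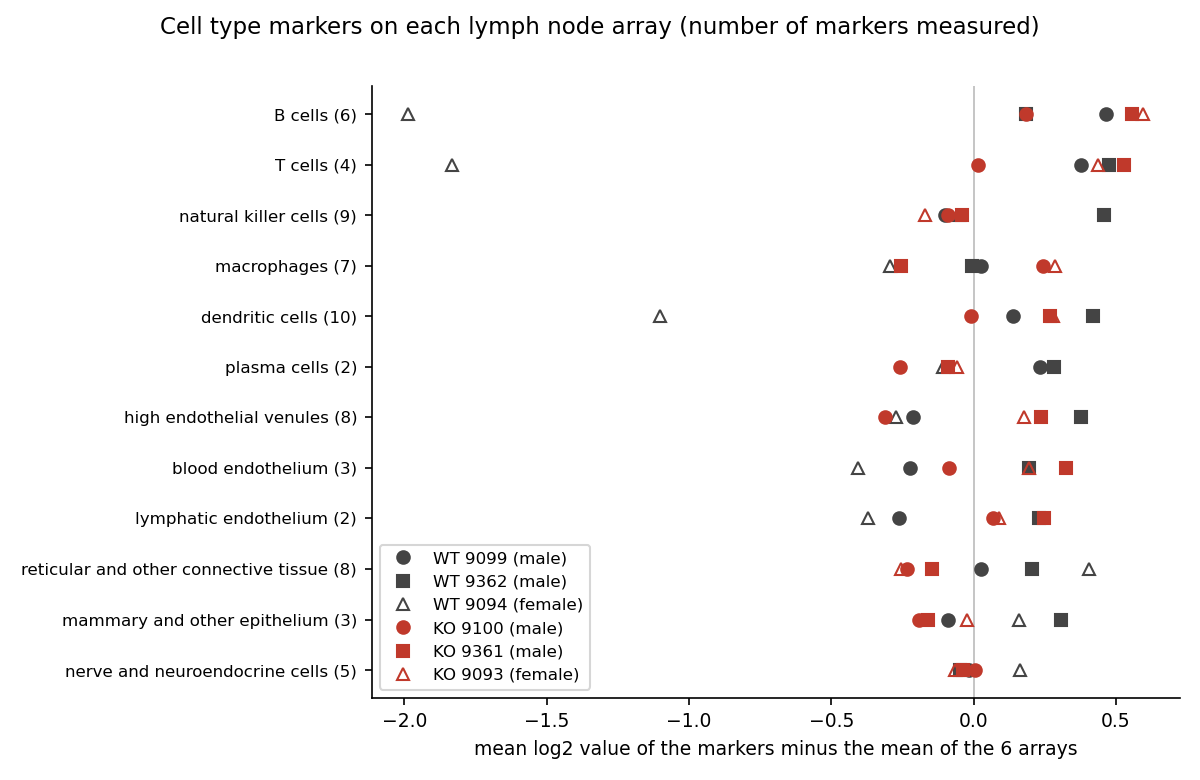
Points give the mean log2 value of the measured markers of a cell type on each of the 6 lymph node arrays, minus the mean of the 6 arrays (x axis), with WT in grey, KO in red and open triangles for the 2 females. B cell, T cell and dendritic cell markers lie far to the left on WT 9094 and close together on the other 5 arrays.

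The targeted transcript did not separate the genotypes in lymph node. St6galnac2, on chromosome 11, read 6.53, 6.83 and 6.18 on WT 9099, 9362 and 9094, and 6.17, 6.18 and 6.66 on KO 9100, 9361 and 9093. The KO males lay below both WT males while the KO female lay above the WT female, and the groups overlapped. Over all 6 animals the difference was -0.17 ± 0.26 (SE), with an adjusted p of 0.845 by limma and Benjamini-Hochberg, and its 95% interval includes 0. In males it was -0.50, from the KO mean to WT 9099 it was -0.19, and without 9362 it was 0.01, so both its sign and its size changed with the animals. Where the probes lie relative to the deletion was not given in the sources used here, and probes outside the deleted part check nothing.

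The other 5 enzymes of the family, which sialylate N-acetylgalactosamine on O-glycans or gangliosides, did not pass the test either. St6galnac1, the next protein-coding gene on chromosome 11, read 3.95, 3.996 and 3.90 in WT (9099, 9362, 9094) and 4.23, 3.89 and 3.91 in KO (9100, 9361, 9093). Its difference was 0.06 ± 0.16, at values near or below 4.21, the 25th percentile of all values. St6galnac3 differed by -0.00 ± 0.15, St6galnac4 by 0.15 ± 0.16 and St6galnac6 by -0.18 ± 0.22. St6galnac5 differed by -0.38 ± 0.23, but by 0.02 from the KO mean to WT 9099, and its highest value was on 9094. The median of the family of 6 was -0.09 as deposited and 0.01 with each array centred on its own median.

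Across all named probe sets, limma called 0 of 963 (0%) at an adjusted p under 0.05. Before adjustment 33 probe sets (3.43%) had a p under 0.05, and the smallest adjusted p was 0.801. With 1 probe set per gene it was 31 of 909 (3.41%), in males alone 16 of 963 (1.66%) and without 9094, with no sex term, 40 of 963 (4.15%). Of the 33, 10 (1.04%) were higher in KO and 23 (2.39%) lower, and with each array centred on its median the split turned to 22 higher and 12 lower among 34. The same held for direction over all genes: 304 of 909 (33.4%) were higher and 605 (66.6%) lower as deposited, against 452 and 457 after centring. Centring moved the median difference over all probe sets from -0.10 to 0.00, and array medians were 5.736 on WT 9362 and 5.497 to 5.619 on the other 5. A small lower value in KO therefore has to be read against that shift. The count before adjustment was 98 without WT 9099, 20 without WT 9362, 16 without WT 9094 or without KO 9093, 22 without KO 9361 and 29 without KO 9100, each with 0 called. Leaving out either female gives the same fit as males alone, because the sex term takes up the remaining female. A limma fit over all tissues of the line called 1 probe set, Il27ra, at an adjusted p of 0.0181. That fit had no term for the animal, so tissues of the same animal counted as independent. It also used brain and intestine as labelled, although an array of each was in doubt.

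The number of arrays limited the precision. The half-width of the 95% interval of a difference was 0.556 in the median, and it was below 1 for 730 of 909 genes. All 3 KO animals lay above all 3 WT animals in 26 probe sets (2.7%) and below them in 77 (8%). With 1 probe set per gene these were 22 genes above (2.42%) and 75 below (8.25%), and after centring 45 above and 42 below. For a single gene an exact permutation test of 3 animals against 3 cannot give a two-sided p below 0.1.

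Of the 12 probe sets with the smallest p that were higher in KO none passed the test, and each had an adjusted p of 0.801. Mcoln3 had the smallest p of all. It encodes mucolipin-3, a cation channel of endosomes and lysosomes. Its values were 5.50, 4.96 and 4.68 on WT 9099, 9362 and 9094, and 6.20, 6.52 and 6.55 on KO 9100, 9361 and 9093. The groups did not overlap, and the gap of 0.70 between the nearest animals lay between WT 9099 and KO 9100. The difference was 1.38 ± 0.26 over all 6 animals, 1.13 in males and 0.92 from the KO mean to WT 9099, which is 66.9% of the value over all 6.

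Mcoln2, its neighbour on chromosome 3, encodes the related channel mucolipin-2. It read 7.47, 8.36 and 5.99 in WT (9099, 9362, 9094) and 8.08, 7.77 and 8.49 in KO (9100, 9361, 9093). The groups overlapped, and the difference of 0.84 ± 0.59 was 0.01 in males. The stretches of 250 bases before the starts of both genes are shown because the genes lie side by side and only Mcoln3 separated the genotypes. They come from RefSeq (GRCm38.p6) and are written 5' to 3' on the gene's strand, with motif matches in capitals.

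Mcoln3, chr3:146121541-146121790, plus strand: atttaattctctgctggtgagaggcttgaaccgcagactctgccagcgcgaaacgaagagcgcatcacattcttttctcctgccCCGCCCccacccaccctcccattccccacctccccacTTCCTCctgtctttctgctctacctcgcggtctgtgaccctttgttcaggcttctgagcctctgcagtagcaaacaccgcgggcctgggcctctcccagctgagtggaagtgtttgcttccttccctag

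Mcoln2, chr3:146149924-146150173, plus strand: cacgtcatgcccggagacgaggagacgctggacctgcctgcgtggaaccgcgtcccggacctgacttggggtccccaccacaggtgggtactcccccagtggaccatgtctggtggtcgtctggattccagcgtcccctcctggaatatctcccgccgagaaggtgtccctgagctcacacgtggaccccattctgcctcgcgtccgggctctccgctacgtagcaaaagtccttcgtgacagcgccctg

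Both strands were searched for TATAAA (the core promoter box of that sequence), for the CCAAT box, for GGGCGG (the GC box), for GAGGAA (a purine-rich ETS element) and for the octamer ATTTGCAT. The Mcoln3 window held 1 GC box, read as CCGCCC, and 1 ETS element, read as TTCCTC, and neither overlapped another match. The Mcoln2 window held no match. Of 32851 mouse promoter windows of the same table, 32.7% held the GC box, 23.3% the ETS element, 12.4% the TATAAA box, 33.8% the CCAAT box and 1.6% the octamer. A match describes letters only, and no match says only that they are not in this window.

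Il27ra, a receptor chain for interleukin-27, had the second smallest p. It read 8.17, 8.23 and 6.92 in WT (9099, 9362, 9094) and 8.97, 8.92 and 8.28 in KO (9100, 9361, 9093). In each genotype the female was lowest, and the KO female lay 0.05 above the highest WT male. The difference was 0.95 ± 0.19 over all animals, 0.75 in males and 0.55 to WT 9099.

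Cd209b, a C-type lectin that binds mannose and is made by sinus and marginal zone macrophages, was measured by 2 probe sets. The brighter one read 10.32, 9.71 and 8.26 in WT and 11.25, 10.46 and 11.07 in KO, in the same order of animals. The groups did not overlap, 9094 was lowest, and KO 9361 lay 0.14 above WT 9099. Its difference was 1.49 ± 0.50 (1.62 ± 0.53 for the other probe set), against 0.84 in males and 0.60 to WT 9099. Its measured neighbours on chromosome 8 differed in size and sign, and none passed the test: Fcer2a differed by 1.45 ± 0.62, Cd209e by 0.92 ± 0.64, Cd209d by 0.69 ± 0.45, Clec4g by 0.78 ± 0.41, Cd209a by -0.14 ± 0.18 and Cd209c by 0.09 ± 0.17.

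Timd4, a phosphatidylserine receptor of tissue macrophages, read 7.39, 8.23 and 6.20 in WT (9099, 9362, 9094) and 9.01, 8.15 and 9.11 in KO (9100, 9361, 9093). KO 9361 lay within the WT range and the other KO animals lay above it. The difference of 1.49 ± 0.55 was 0.78 in males and 1.37 to WT 9099. Havcr1, a related receptor with a mucin stalk, read 4.65, 4.20 and 4.51 in WT and 4.84, 5.41 and 5.19 in KO. Its groups did not overlap and its difference was 0.69 ± 0.23, 0.70 in males and 0.50 to WT 9099.

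Flt3l, the growth factor of dendritic cells, read 6.98, 6.20 and 6.17 in WT and 7.07, 7.60 and 7.38 in KO. The groups did not overlap, but KO 9100 lay 0.09 above WT 9099, and the difference of 0.90 ± 0.29 was 0.37 to WT 9099. Siglech, a sialic acid-binding type receptor of plasmacytoid dendritic cells, read 8.43, 8.47 and 6.32 in WT and 9.25, 8.84 and 8.73 in KO. Its difference of 1.20 ± 0.41 was 0.60 in males, and 9094 lay far below the others. Il7, the survival factor of T cells made by stromal cells, differed by 0.84 ± 0.32, by 0.49 in males and by 0.44 to WT 9099, with overlapping groups. Fut11, a fucosyltransferase, differed by 0.52 ± 0.21 and by 0.48 to WT 9099, and Icam2, an adhesion molecule of endothelium and lymphocytes, by 0.75 ± 0.30 and 0.39. Cxcl12, a chemokine of stromal cells, differed by 0.46 ± 0.16 (0.42 to WT 9099) in its dimmer probe set and by 0.65 ± 0.38 (0.10 to WT 9099) in its brighter one.

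Of the 12 probe sets with the smallest p that were lower in KO none passed the test either. Adgre1, which encodes an adhesion receptor used as a marker of macrophages, read 5.96, 6.10 and 6.20 in WT (9099, 9362, 9094) and 5.50, 5.48 and 5.60 in KO (9100, 9361, 9093). Each genotype lay within a narrow range and the ranges did not overlap. The difference was -0.56 ± 0.14, and it was -0.54 in males and -0.44 to WT 9099. With each array centred on its median it was -0.46. Of the 7 macrophage markers measured 4 were higher and 3 lower, with a median of 0.02; Timd4 was the one higher and Adgre1 the one lower before adjustment.

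Csgalnact1, which adds the first N-acetylgalactosamine of chondroitin sulfate chains, read 5.999, 6.43 and 6.08 in WT and 5.41, 5.48 and 5.49 in KO. All KO animals lay at least 0.51 below all WT animals. The difference was -0.71 ± 0.18, -0.77 in males, -0.54 to WT 9099 and -0.61 after centring. Abo, the glycosyltransferase of the A and B blood groups, read 4.51, 4.96 and 4.59 in WT and 4.05, 4.08 and 4.22 in KO, without overlap. Its difference of -0.57 ± 0.19 was -0.39 to WT 9099, and its KO values lay near or below 4.21, the 25th percentile of all values.

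Among matrix and growth factor genes, values on 9094 were often the highest. Col14a1, a collagen that binds fibrils, read 6.37, 6.57 and 6.85 in WT and 5.75, 6.12 and 5.53 in KO, a difference of -0.80 ± 0.24 and of -0.57 to WT 9099. Gpc6, which encodes the membrane proteoglycan glypican-6, read 5.57, 5.53 and 5.55 in WT and 4.84, 5.21 and 5.09 in KO. The WT animals of Gpc6 lay within 0.04 of each other, and its difference of -0.50 ± 0.17 was -0.52 both in males and to WT 9099. Fzd1, a receptor for Wnt proteins, read 6.41, 6.61 and 6.57 in WT and 5.94, 6.16 and 5.76 in KO, a difference of -0.58 ± 0.17 and of -0.45 to WT 9099.

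Ccl11, the eosinophil-attracting chemokine eotaxin-1, read 7.14, 7.67 and 8.65 in WT and 6.69, 6.59 and 5.84 in KO. The females were the extremes of both genotypes, and the difference of -1.45 ± 0.47 was -0.77 in males and to WT 9099. Ccl24, eotaxin-2, differed by -0.54 ± 0.18 and by -0.31 to WT 9099. Fst, which binds and blocks activin, read 5.01, 5.47 and 6.67 in WT and 4.56, 4.55 and 4.60 in KO, so its difference of -1.15 ± 0.34 was -0.68 in males and -0.44 to WT 9099. Igf2, a growth factor, differed by -0.79 ± 0.22 (-0.46 to WT 9099), Fgfr1, a receptor for fibroblast growth factors, by -0.67 ± 0.21 (-0.42), and Atrnl1 by -0.58 ± 0.19 (-0.22). Lum, at 5.48, 6.42 and 9.32 in WT and 5.36, 4.999 and 4.89 in KO, differed by -1.99 ± 0.81, of which -0.40 was left to WT 9099. B3galt5, a galactosyltransferase, read 4.85, 7.11 and 4.79 in WT and 4.57, 4.50 and 4.61 in KO, so that its difference of -1.02 ± 0.65 rested on 9362 and was -0.25 without it.

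**Figure D3:**
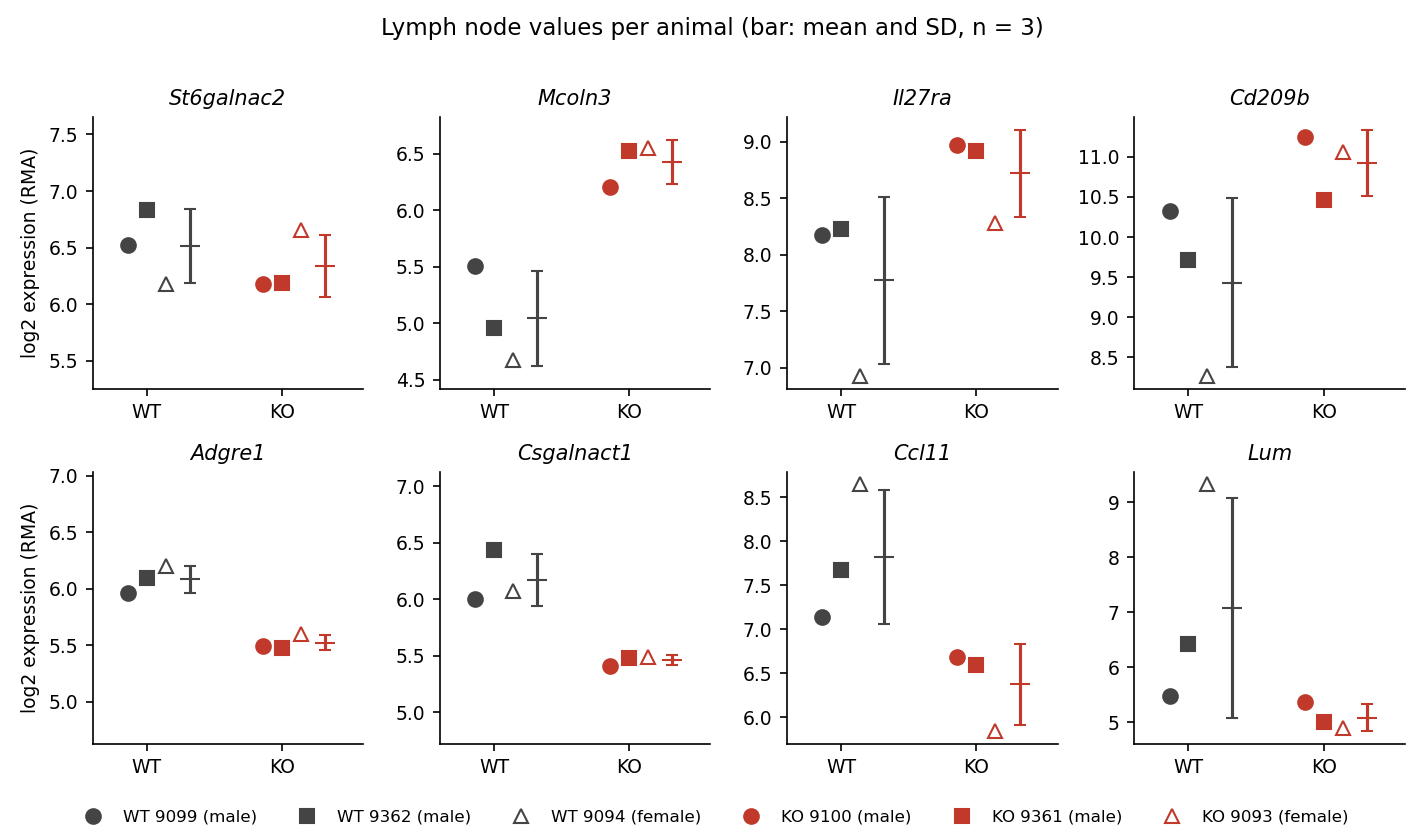
Log2 expression of 8 genes (y axes, own range per gene) in each WT and KO animal, with open triangles for females and a bar for the mean and standard deviation of 3 animals. Mcoln3, Adgre1 and Csgalnact1 separate the genotypes with narrow KO ranges, St6galnac2 does not separate them, and in Lum and Cd209b the WT female 9094 lies far from the other WT animals.

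Of the 33 probe sets with a p under 0.05 before adjustment, 28 were smaller in males. In 25 of them the array of 9094 held the highest or lowest of the 6 values, as it did in 570 of all 909 genes. Among the 24 probe sets with the smallest p (12 in each direction), Lum and B3galt5, the value from the KO mean to WT 9099 was at least 60% of that over all animals in 12 of 26. As 9099 was the WT array most like the KO arrays, this count tends to be low by construction. Over all genes, 24 differed by at least 1 in size, 15 in males and 13 without 9094.

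Sialyltransferases and O-glycan enzymes, the pathway of the targeted enzyme, gave no member that passed the test. Of 13 other sialyltransferases 5 were higher and 8 lower in KO, with a median of -0.07 against -0.10 over all 909 genes (7 higher, 6 lower and 0.03 after centring), and 0 had a p under 0.05 before adjustment. St8sia6, which builds disialic acid, read 6.99, 7.39 and 5.68 in WT (9099, 9362, 9094) and 7.39, 7.74 and 7.73 in KO (9100, 9361, 9093), a difference of 0.94 ± 0.40 and of 0.38 in males, and KO 9100 lay just above WT 9362. St3gal2, which sialylates galactose, differed by -0.41 ± 0.24 and by 0.00 to WT 9099. Of 19 polypeptide GalNAc transferases, which start O-glycans, 7 were higher and 12 lower, with a median of -0.21 that was -0.11 after centring and -0.00 to WT 9099. Galnt16 had the smallest p among them, at -0.37 ± 0.15, and Galnt3 the second, at -0.36 ± 0.17. Of 11 O-glycan core and chain enzymes 5 were higher and 6 lower (median -0.19). In males 10 of 11 were lower (median -0.30), against 604 of all 909 genes. The median to WT 9099 was 0.04, and 7 of the 11 were highest on 9362, against 299 of all 909. C1galt1c1, the chaperone of the core 1 enzyme, differed by -0.53 ± 0.30 and by 0.02 to WT 9099. Of 11 genes of sialic acid synthesis, transport and removal 5 were higher and 6 lower, with Neu2, a sialidase, at -1.90 ± 0.84 (9.34 on 9094 and 4.84 to 5.96 elsewhere) and Npl, which breaks down sialic acid, at 0.43 ± 0.20.

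No carrier or reader of O-glycans passed the test, and the medians of their lists lay between -0.25 and 0.01, against -0.10 over all genes. Of 12 carriers of mucin-type chains 4 were higher and 8 lower, with a median of -0.08 (6 and 6, and 0.02, after centring). To WT 9099 their median was 0.26, against 0.02 over all genes. Of the 12, 2 had a p under 0.05 before adjustment, against 3.41% of all genes: Havcr1 and Timd4, both higher. Selplg, the ligand of P-selectin on leukocytes, read 6.23, 6.08 and 5.98 in WT and 5.80, 5.80 and 5.82 in KO, without overlap and with a difference of -0.29 ± 0.15. Of 19 genes of selectins and enzymes that make their ligands 8 were higher and 11 lower (median -0.09, after centring 0.01). Of 9 Siglecs 5 were higher and 4 lower (median 0.01); besides Siglech, Siglecg, a B cell inhibitor, differed by 1.03 ± 0.46 and by 0.35 in males. Of 9 galectins 3 were higher and 6 lower (median -0.25, in males -0.02), and the smallest p were those of Lgals3, at -0.35 ± 0.21, and Lgals2, at -0.25 ± 0.16. Of 23 myeloid C-type lectins 11 were higher and 12 lower (median -0.01), and after centring 16 and 7 (median 0.09). Mgl2, a macrophage lectin for galactose and N-acetylgalactosamine, read 6.25, 6.41 and 8.75 in WT and 5.91, 5.69 and 6.01 in KO, a difference of -1.27 ± 0.48 and of -0.39 to WT 9099, and Mrc2, a collagen receptor, differed by -0.56 ± 0.20 and -0.28.

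Chemokines of lymphoid tissue differed between all animals and males in the direction of their median. Of 13 homing chemokines and receptors 11 were higher in KO, with a median of 0.55. In males 3 were higher and 10 lower, with a median of -0.14, and 11 of the 13 were lowest on 9094. Over all 909 genes 604 were lower in males and 257 were lowest on 9094. Ccl21c, a T zone chemokine whose probe set is shared with other transcripts, so that its near-identical copies cannot be told apart, read 12.82, 12.21 and 10.91 in WT and 12.34, 12.64 and 12.87 in KO. Its difference was 0.64 ± 0.47 over all animals, -0.03 in males and -0.21 to WT 9099, and that of Ccr7 was 1.04 ± 0.79, -0.16 and -0.33. Likewise the 6 B cell markers were all higher (median 0.80) but had a median of -0.04 in males and -0.16 to WT 9099, and the 4 T cell markers had 0.63, 0.01 and 0.14. In each of these 3 lists 0 genes passed the test and 0 had a p under 0.05 before adjustment.

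Of 36 inflammatory chemokines and receptors 13 were higher and 23 lower, with a median of -0.10 (18 and 18 after centring). In males 31 of 36 were lower (median -0.23), against 604 of all 909 genes. On 9362, 17 of the 36 were highest, against 299 of all 909. To WT 9099 the median of the 36 was -0.06. Of 73 interleukins and receptors 33 were higher and 40 lower (median -0.01), and after centring 47 and 26 (median 0.09). Beside Il27ra and Il7, Il17d differed by -0.47 ± 0.17 and Il2rg, the chain shared by several interleukin receptors, by 1.14 ± 0.52, with 0.05 to WT 9099.

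Connective tissue and growth factor lists are set against all genes, of which 66.6% (in males 604 of 909) were lower in KO, with a median of -0.10. The fibroblast growth factor median lay above that value, and over all 6 animals the share of lower heparan sulfate enzymes was that of all genes. In males 22 of these 24 enzymes were lower, with a median of -0.15, and to WT 9099 the median was 0.03. On 9362, 11 of the 24 were highest, against 299 of all 909 genes. The 8 connective tissue markers had 3 higher and 5 lower genes and a median of -0.50; in males all 8 were lower, with a median of -0.22, and to WT 9099 it was -0.25. Of 9 matrix proteoglycans and related genes 6 were lower (median -0.24) and in males all 9 (median -0.25, to WT 9099 -0.14), among them Agrn, a basement membrane proteoglycan, at -0.52 ± 0.18. Of 15 genes of the insulin-like growth factor axis 12 were lower (median -0.25, in males -0.02). Of 26 fibroblast growth factors and receptors 22 were lower (median -0.07; after centring 12 lower, median 0.03), of 22 genes of the TGF-beta, activin and BMP group 18 (median -0.22, after centring 13 and -0.13, to WT 9099 0.00), with Acvr1, a type I receptor, at -0.55 ± 0.22, and of 28 Wnt and Frizzled genes 23 (median -0.17, after centring 18 and -0.07), with Wnt10b at -0.36 ± 0.17. Of 17 chondroitin sulfate enzymes 11 were lower (median -0.17, after centring 10 and -0.07). In 4 of the 17 all KO animals lay below all WT animals, against 8.25% of all genes, and after centring in 1; among the 4 were Csgalnact1 and Chst11, the latter a sulfotransferase, at -0.27 ± 0.14. Of 24 heparan sulfate enzymes 16 were lower (median -0.17, after centring 13 and -0.07), with Hs6st2, a sulfotransferase, at -0.52 ± 0.23 and Extl3, a chain-starting enzyme, at -0.48 ± 0.21. Of 22 enzymes of lysosomal glycan breakdown 12 were lower (median -0.02; after centring 6 lower, median 0.08), with Gla, alpha-galactosidase, at -0.31 ± 0.17.

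**Figure D4:**
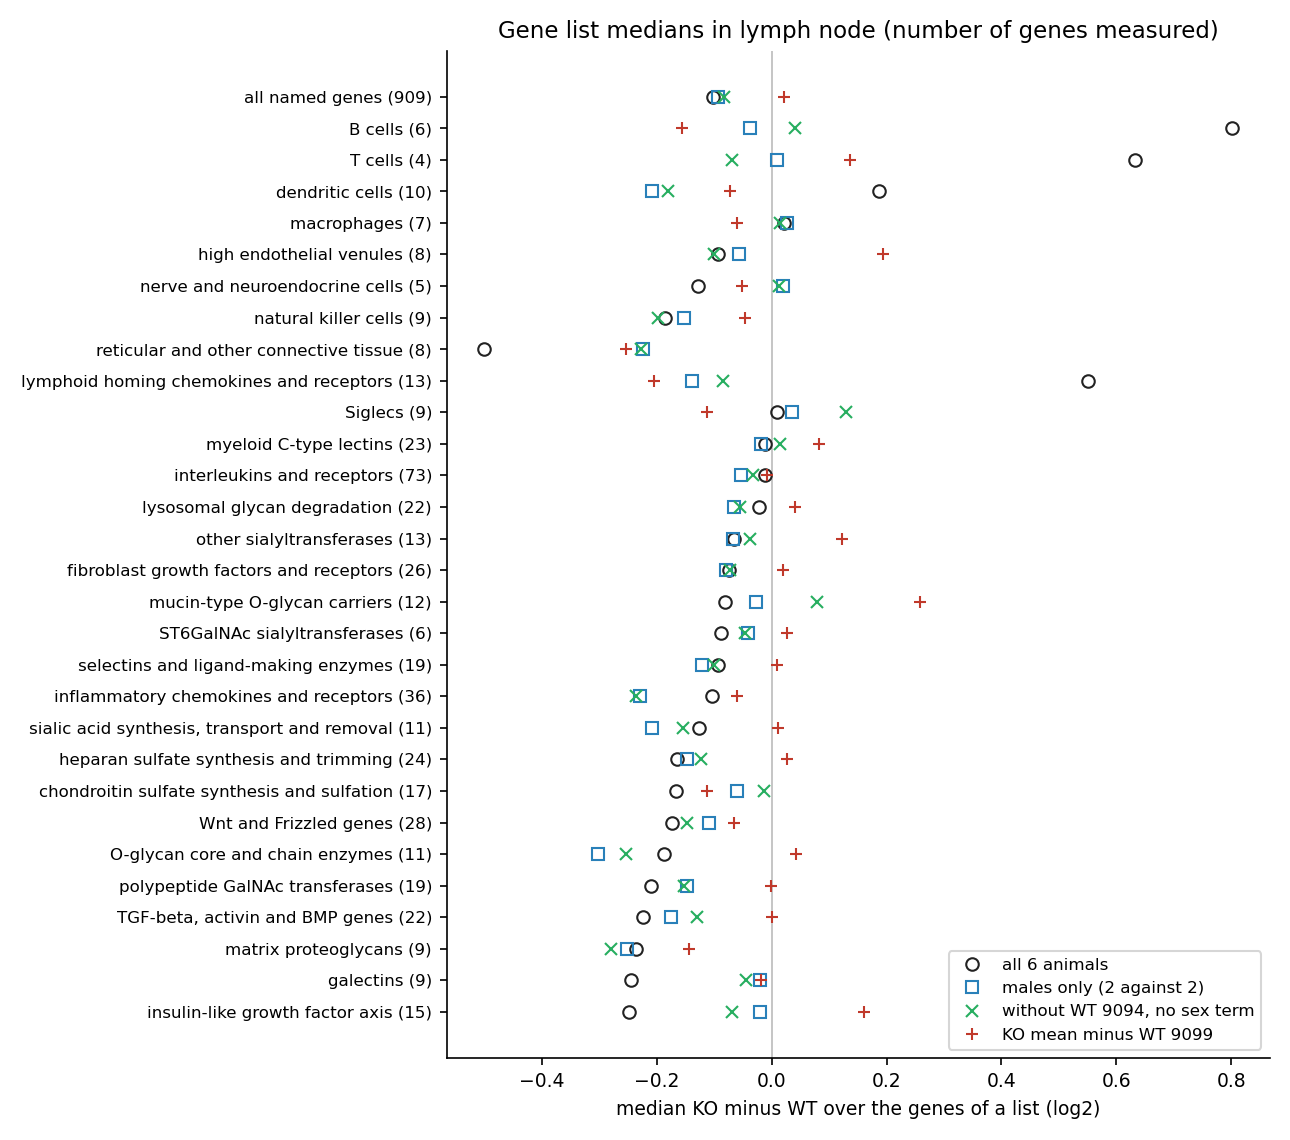
Median KO minus WT difference (x axis, log2) over the measured genes of each list with at least 4 genes, for all 6 animals, for the males, without WT 9094, and as the KO mean minus WT 9099. B cells, T cells and lymphoid chemokines lie at 0.55 to 0.80 with all animals and between -0.21 and 0.14 in the other analyses, and connective tissue lies lowest, at -0.50, with all animals.

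Thyroid of the same animals was used to ask whether a difference was particular to lymph node. The test of the lymph node difference minus the thyroid difference called 0 of 963 probe sets (0%) by limma; 32 (3.32%) had a p under 0.05 before adjustment and the smallest adjusted p was 0.911. The smallest p were those of Mcoln3 and Mcoln2, at 1.77 ± 0.36 and 1.51 ± 0.31. In thyroid Mcoln3 read 5.54, 5.65 and 5.45 in WT (9099, 9362, 9094) and 4.93, 4.43 and 6.09 in KO (9100, 9361, 9093), and Mcoln2 6.01, 6.15 and 5.80 in WT and 4.99, 4.70 and 6.27 in KO. Both were thus lowest on the 2 KO male thyroid arrays, and the thyroid differences were -0.39 ± 0.30 and -0.67 ± 0.31. On the same 2 thyroid arrays Chga, a marker of neuroendocrine cells, read 7.79 and 5.77 against 12.73 to 13.06 on the other 4; its part in the result was not tested.

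The dimmer Cd209b probe set followed, at 1.68 ± 0.38, with 5.0 to 5.97 on all 6 thyroid arrays and a thyroid difference of -0.07 ± 0.26. Asgr1, a lectin that takes up asialo-glycoproteins in liver, differed by 0.92 ± 0.26, which came from thyroid (-1.03 ± 0.20, against -0.10 ± 0.32 in lymph node). In thyroid it read 5.23, 5.72 and 11.17 in WT (9099, 9362, 9094) and 4.16, 4.56 and 10.32 in KO (9100, 9361, 9093). The female of each genotype thus lay far above its males, a split much larger than the difference between genotypes. Clec18a, a C-type lectin, had -0.83 ± 0.26, from -0.36 ± 0.20 in lymph node and 0.47 ± 0.17 in thyroid, and the dimmer probe set of B3galt1, a galactosyltransferase, -0.86 ± 0.27. Both were dim: the 25th percentile of all values was 4.21. Clec18a read 4.07 to 4.67 in lymph node and 4.20 to 4.97 in thyroid, and that B3galt1 probe set 3.33 to 4.42 in lymph node. For Il27ra the thyroid difference was 0.05 ± 0.17 and the difference between tissues 0.90 ± 0.30. Thyroid alone gave 0 called probe sets (0%) and 42 before adjustment (4.36%). Without WT 9099 the test between tissues called 1 probe set, Prol1 (-7.68 ± 0.49, adjusted p = 0.0287), the gene that was high on 9362. In males it called 1, Chga (6.04 ± 0.62, adjusted p = 0.0428), with lymph node values of 5.19 to 5.74 on all 6 arrays.

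**Figure D5:**
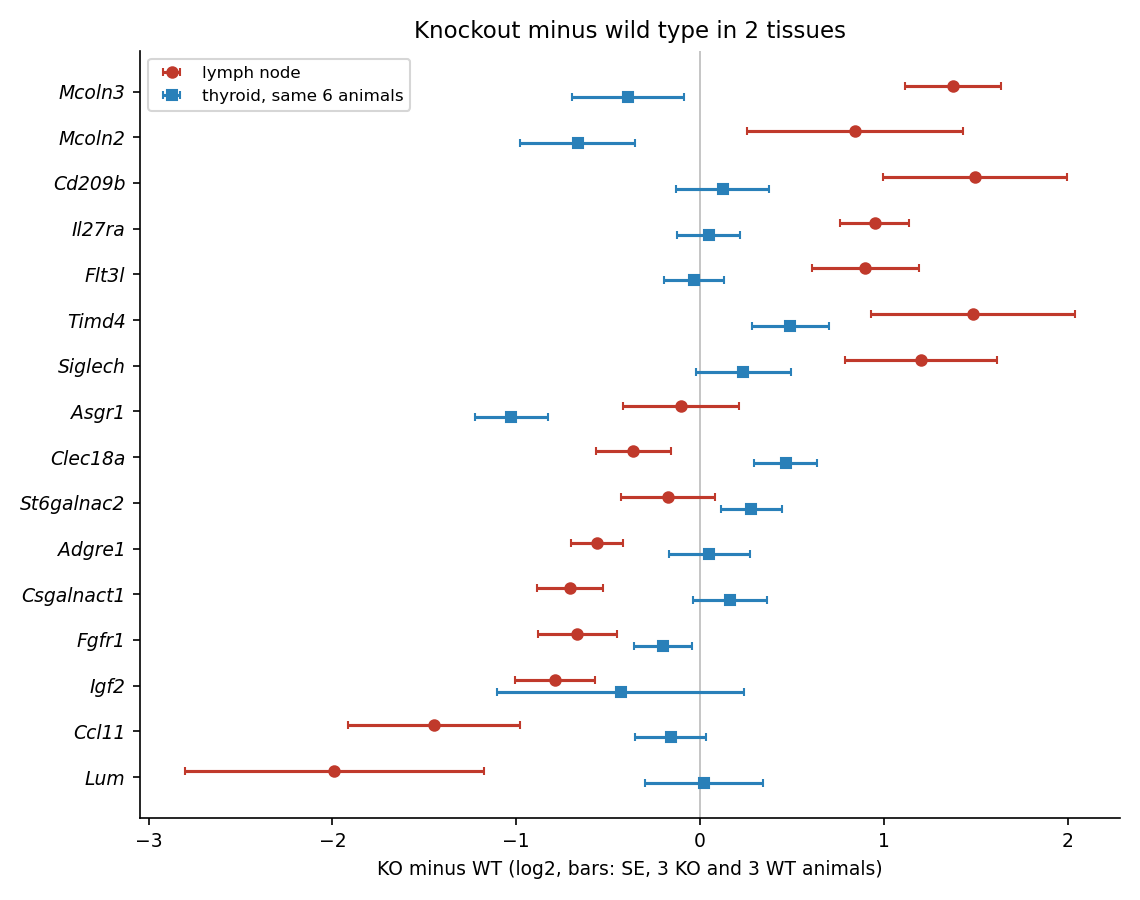
KO minus WT difference (x axis, log2, bars are standard errors, 3 KO and 3 WT animals) in lymph node (red circles) and in thyroid of the same animals (blue squares) for 16 named genes. Mcoln3, Cd209b, Il27ra and Flt3l lie above 0 in lymph node and near or below 0 in thyroid, and Asgr1 lies below 0 in thyroid and near 0 in lymph node.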

How the data were processed

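Biotin-labelled cRNA from total RNA was hybridised to a custom Affymetrix array. The deposited table holds RMA output on a log2 scale, per the labels and the submitters' processing notes, and its values lie between 2.113 and 14.069. Version and joint or separate normalization of the arrays were not given in the sources used here. They were used as deposited. Of 1246 probe sets, 963 matched a symbol of the supplied RefSeq gene table; the other 283 entered only an alternative. For the 48 genes with more than 1 probe set, the brightest over all 60 arrays stood for the gene; 217 probe sets share probes with other transcripts.

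KO and WT were compared with limma 3.58.1 in R 4.3.3 (lmFit, eBayes, 2-sided), with sex as a covariate, and p-values were adjusted by Benjamini-Hochberg over 963 probe sets. Errors are standard errors unless stated. For the thyroid comparison each animal's lymph node minus thyroid value was fitted in the same way. No scan date or other batch was given in the sources used here, and no 2 lymph node arrays held equal values.

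Alternatives were leaving out animals, other scalings, no sex term, a block of neighbouring animal numbers, wider fits, array weights, variance settings and other probe set choices; leaving out 9094 and 9362 together was chosen after seeing the data. Named genes are the St6galnac genes, the 12 smallest p in each direction, the 8 largest differences in males without overlap, the 6 smallest p between tissues, at most 4 smallest p per list, and markers by their deviation on 9094. The members and the 35 lists were chosen with earlier results of these data known. The fit was tested on simulated data with the same spread in both genotypes, unlike these arrays. That test therefore says nothing about the arrays that stood apart. Some genes that enter the counts are not reported by name here.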

Additional observations from a re-analysis of the deposited data

How the results depend on the processing

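In lymph node 0 probe sets were called in 20 of 21 alternatives and 1 (Il27ra, 0.95, adjusted p = 0.0181) in 1 model over every tissue of the line, which pools their spread. Leaving out single animals gave 0 called throughout, with 16 to 98 before adjustment. A block of neighbouring animal numbers gave 0 called and 17 before adjustment, with an Mcoln3 difference of 1.38; the deviations of these number pairs correlated at -0.423, 0.256 and -0.369, so the numbers were not taken to pair the animals. The single fit of lymph node and thyroid gave 63 before adjustment, the single fit of the line 57, males alone 16, against 33. St6galnac2 ranged from -0.501 to 0.008 when an animal was left out. The tissue difference had 0 called, 0 to 1 without single animals and 1 in males; before adjustment, 16 to 86, and 69 with array weights, against 32. Of 66 values for named probe sets, 9 changed sign somewhere, all uncalled. Without 9094 and 9362 the differences were 0.054 (St6galnac3), 0.024 (St6galnac5), 0.191 (Asgr1), 0.066 (B3galt1, dimmer probe set), -0.33 (Ccr7), 0.001 (St3gal2), 0.022 (C1galt1c1) and -0.205 (Ccl21c). Without 9094 alone Ccr7 had -0.152 with no sex term. In males Ccr7 had -0.159 and Ccl21c -0.027. Centring gave St6galnac3 0.096 and a second quantile normalization 0.095. Leaving out single animals gave -0.044 to 0.147 for St6galnac1, -0.049 to 0.062 for St6galnac3, -0.336 to 0.233 for Asgr1, -0.159 to 1.59 for Ccr7 and -0.027 to 1.002 for Ccl21c. The causes were not tested. The number of arrays limits what could be detected.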

Other observations

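The nucleotide sugar transporter family Slc35 was measured by 22 probe sets for 21 genes, of which 3 were lower in KO before adjustment, against 2.39% of all probe sets, and 0 higher. All 3 came from its e group: Slc35e1, Slc35e3 and Slc35e4, the 3 measured members of that group. They were singled out after their values were seen, and their substrates are not given here. Slc35e1 read 6.54, 6.60 and 6.82 in WT (9099, 9362, 9094) and 6.18, 6.27 and 6.22 in KO (9100, 9361, 9093). Slc35e3 read 7.27, 7.09 and 7.17 in WT and 6.83, 6.80 and 6.65 in KO, and Slc35e4 6.43, 6.57 and 6.91 in WT and 6.22, 6.06 and 6.16 in KO. In each the KO animals lay below all WT animals, as in 8.25% of all genes. The differences were -0.44 ± 0.15, -0.42 ± 0.15 and -0.49 ± 0.17, with -0.32, -0.51 and -0.29 to WT 9099 and -0.34, -0.32 and -0.39 after centring. None was called by limma with Benjamini-Hochberg adjustment (adjusted p = 0.801). In thyroid of the same animals they differed by -0.09 ± 0.20, -0.15 ± 0.22 and -0.35 ± 0.20.

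Gpc4, which encodes the proteoglycan glypican-4, read 3.55, 4.61 and 5.12 in WT and 3.58, 3.01 and 3.30 in KO, a difference of -1.13 ± 0.40 that was -0.25 to WT 9099. Its KO values and that of WT 9099 lay below 4.21, the 25th percentile of all values. Of 87 named probe sets on chromosome 11, which carries St6galnac2, 6 (6.9%) had a p under 0.05 before adjustment, against 3.43% of all 963; the difference between these shares was not tested.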
